A study of Homo sapiens with 12 samples.

Results

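The interferon-stimulated genes described here are 45 genes of the type I interferon response, taken by name from a list that follows what is known of the pathway. No value of these libraries set the list, but it was chosen with earlier results of these data known. All 45 matched 1 gene identifier each among the 60617 in the files. They were followed across 12 RNA-seq libraries of colon cancer cells, and 39 of the 45 had enough reads to be tested.

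Type I interferon binds the receptor chains IFNAR1 and IFNAR2, whose kinases JAK1 and TYK2 phosphorylate STAT2. STAT2 and IRF9 are parts of the factor ISGF3, which binds the interferon-stimulated response element in the promoters of its target genes. The products of those genes sense viral RNA, block entry and translation, conjugate the ubiquitin-like protein ISG15, or feed back on the signal, and epithelial cells keep part of the programme at a low level without added interferon.

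HCT 116p53-/- cells are a human colon cancer line that lacks p53. Libraries were made from them and from a sub-line derived from them that the labels call RPL3 KO and the study calls uL3ΔHCT 116p53-/-. RPL3 encodes the ribosomal protein uL3. Both lines lack p53 by label, and each was given vehicle or 5 nM actinomycin D (Act D), which at low dose blocks rRNA synthesis, for 24 h. Each of the 4 groups had 3 libraries, which the labels call biological replicates. The sub-line is a single line, which the study describes as stably depleted of uL3, so every difference between the lines is a difference between 2 cultures carried separately, and the deletion and the line cannot be told apart.

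The total expected count per library was between 10087925 and 21138886. The genotype label was not borne out at the RNA level. RPL3 stood at 1121 to 1151 CPM, the count scaled to library size, in HCT 116p53-/- cells with vehicle and at 1188 to 1337 CPM in the libraries labelled as deleted for it (log2 difference 0.13, edgeR adjusted p = 0.155). These counts do not measure the protein. Of 9 colon epithelial markers, some were near 0 in the uL3Δ-labelled libraries and others were not. CDH1 stood at 0.161 to 0.701 CPM against 64.3 to 68.8 CPM with vehicle, CDX2 at 0.1001 to 0.270 CPM against 14.2 to 15.4 CPM, and KRT20 at no more than 0.0675 CPM. EPCAM (32.9 to 37.1 against 145 to 168 CPM), KRT19 (35.2 to 38.3 against 564 to 652 CPM) and KRT8 (714 to 813 against 1047 to 1182 CPM) were lower but present, and KRT18 was higher, at 804 to 899 against 576 to 623 CPM. VIL1 and LGALS4 were near 0 in both lines. The list summed to 1591 to 1983 CPM in the 6 uL3Δ-labelled libraries and 2480 to 2814 CPM in the other 6. The summed CPM of 7 fibroblast markers was 95.4 to 117 in the 6 uL3Δ-labelled libraries and 7.64 to 14.6 in the other 6, carried by COL3A1, PDGFRA and LUM, while COL1A1 was lower there. The leukocyte list summed to 25.3 to 36.9 against 8.09 to 12.8 CPM, through CD68 and LYZ, with PTPRC and CD3E at or near 0. What part this has in the differences between the lines below was not tested, and the libraries are called uL3Δ-labelled throughout.

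Together the 45 genes took between 0.0585% and 0.0828% of each library's counts. Compared per transcript length, in TPM (abundance scaled by length and library) as deposited, the most abundant in HCT 116p53-/- cells with vehicle were IFITM3, a membrane protein that hinders virus entry, at a mean of 134 TPM, ISG15 at 74.1 TPM, IFITM2 at 32.0 TPM and the ubiquitin ligase TRIM25 at 26.04 TPM. In the uL3Δ-labelled libraries with vehicle IFITM3 was again high at 82.8 TPM, and ISG15 stood at 3.20 TPM. At the other end, 6 members stayed under 1 CPM in all 12 libraries and were not tested: the antiviral GTPases MX1 and MX2, the oligoadenylate synthetase OAS2, the apoptosis factor XAF1, the nucleotide kinase CMPK2 and the radical enzyme RSAD2. Their highest single value was 0.872 CPM. CMPK2 had no count in the 3 uL3Δ-labelled libraries with vehicle. Of the 8 interferon genes looked at, IFNA1, IFNK and IFNG had no count in any library and the highest value was 0.724 CPM, for IFNE. In bulk RNA a lower level in every cell and fewer cells expressing a gene cannot be told apart.

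**Figure D1:**
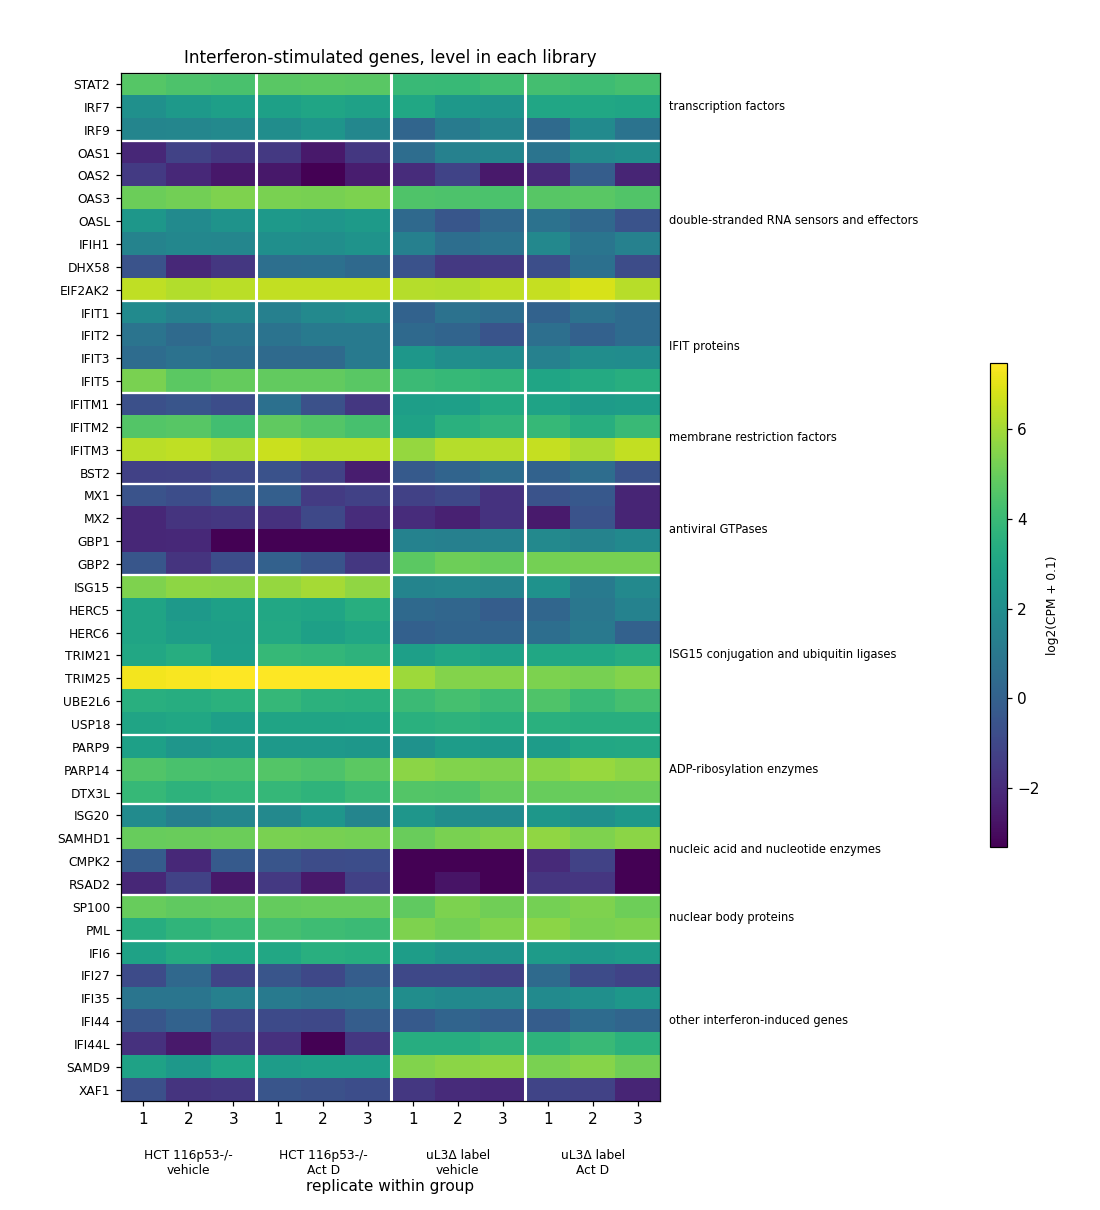
Heat map of the 45 interferon-stimulated genes in 12 libraries, grouped by role, with colour giving log2(CPM + 0.1) and columns giving replicates 1 to 3 of each group. MX1, MX2, OAS2, XAF1, CMPK2 and RSAD2 are dark throughout, TRIM25, EIF2AK2 and IFITM3 are bright, and GBP2, IFI44L and ISG15 change colour between the lines.

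Since ISGF3 acts through promoters, the sequence before each start was examined. RefSeq promoter windows on GRCh38.p14, from 250 bases before to 50 after the start, were found for 35 of the 45 members. A pair of GAAA half-sites 2 bases apart on either strand, a form of the core of the interferon-stimulated response element, was looked for in any window of a gene. Half-sites at other spacings were not counted. It occurred in 24 of the 35 members (68.6%) and in 1195 of all 27305 genes with a window (4.38%). The motif TTCNNNGAA, read the same on both strands and bound by STAT dimers, occurred in 8 of the 35 (22.9%) and in 9.38% of all genes with a window. Such a match describes the letters only and is not evidence of binding.

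The 150 bases before the start are printed here for 6 members, because the first 3 were lower and the last 3 higher in the uL3Δ-labelled libraries although all 6 hold the pair. They are ISG15 (chr1:1013347-1013496, plus strand), HERC5 (chr4:88456969-88457118, plus strand), IFIT1 (chr10:89392473-89392622, plus strand), IFIT3 at the first of its starts (chr10:89327847-89327996, plus strand), IFI44L (chr1:78620298-78620447, plus strand) and GBP1 (chr1:89065209-89065358, minus strand). Each is written 5′ to 3′ on the strand of its gene, with the half-sites of such pairs in capitals as GAAA or, on the other strand, TTTC. The partner of the capitals that open the IFIT3 stretch lies before it.
ISG15: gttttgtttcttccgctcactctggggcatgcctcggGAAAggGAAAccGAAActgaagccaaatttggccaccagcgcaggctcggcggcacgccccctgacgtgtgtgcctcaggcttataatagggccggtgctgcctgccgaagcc
HERC5: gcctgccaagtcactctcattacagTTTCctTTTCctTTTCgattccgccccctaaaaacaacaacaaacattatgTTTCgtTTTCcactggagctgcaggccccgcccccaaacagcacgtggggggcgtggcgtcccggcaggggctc
IFIT1: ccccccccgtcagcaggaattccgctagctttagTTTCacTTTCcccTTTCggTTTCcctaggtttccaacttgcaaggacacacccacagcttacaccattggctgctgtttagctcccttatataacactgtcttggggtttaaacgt
IFIT3: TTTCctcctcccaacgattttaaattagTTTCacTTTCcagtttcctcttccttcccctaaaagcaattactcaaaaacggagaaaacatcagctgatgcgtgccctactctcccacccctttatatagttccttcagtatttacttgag
IFI44L: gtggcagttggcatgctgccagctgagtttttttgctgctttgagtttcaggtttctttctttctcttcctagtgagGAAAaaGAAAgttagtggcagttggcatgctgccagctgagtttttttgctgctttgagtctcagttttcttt
GBP1: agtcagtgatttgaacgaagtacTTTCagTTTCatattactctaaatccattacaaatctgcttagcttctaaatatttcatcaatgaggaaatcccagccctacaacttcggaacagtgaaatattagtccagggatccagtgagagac

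To find which members differed between the lines, the uL3Δ-labelled libraries were compared with HCT 116p53-/- libraries, first with vehicle and then with Act D. With vehicle, 15 of the 39 tested members were higher, 12 lower and 12 did not pass an adjusted p of 0.05. GBP2, IFI44L, GBP1, IFITM1, OAS1 and SAMD9 were the 6 furthest above, and ISG15, HERC6, HERC5, OASL, TRIM25 and IFIT1 the 6 furthest below. The members thus differed in both directions, with log2 differences from -4.03 for ISG15 to 6.07 for GBP2 and a median of 0.10 beside -0.02 over all genes. Such differences were common in these cells: 35.1% of the 15692 genes tested were higher and 36.2% lower, so that the members' 38.5% and 30.8% lay near the background. Values of the groups did not overlap for 29 of the 39 members, beside 72.5% of all genes. Some members higher here, GBP2, IFI44L and GBP1 among them, had enough reads to be tested only through the uL3Δ-labelled libraries.

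The comparison with Act D used the other 6 libraries, and 17 members were higher, 14 lower and 8 not past the threshold. The background was 35.1% higher and 35.3% lower, and the members' shares were 43.6% and 35.9%. The median member differed by 0.27 on the log2 scale and the median gene by -0.02. The groups did not overlap for 31 members, beside 74.1% of all genes. All 27 members called with vehicle were called in the same direction with Act D, and IRF9, PARP9, TRIM21 and SP100 were called only there, which does not show that their difference changed with Act D. SP100 lay at the threshold (log2 difference 0.27, adjusted p = 0.04999). In the deposited TPM, compared after the data were seen, whose median gene differed by -0.42 between the lines with vehicle and -0.45 with Act D on the log2 scale, the group means of BST2 and SAMHD1 with vehicle and of PARP9, SAMHD1, USP18 and SP100 with Act D stood in the opposite order to these calls.

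**Figure D2:**
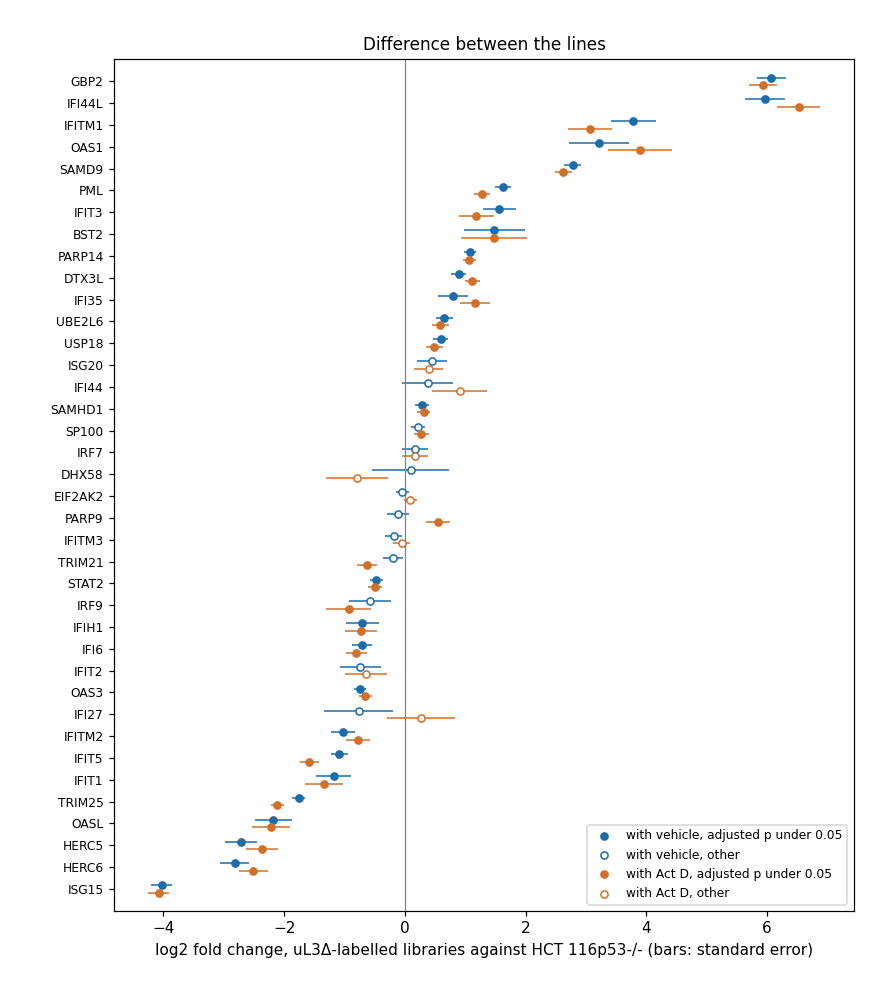
Log2 difference between uL3Δ-labelled and HCT 116p53-/- libraries for 38 tested members, with vehicle (blue) and with Act D (orange), 3 libraries a group, with bars giving the standard error and filled points an adjusted p under 0.05. GBP1, without a count in HCT 116p53-/- cells with Act D, is left out. Points run from ISG15 near -4 to GBP2 near 6 and the 2 colours lie close together for most members.

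Among the transcription factors, STAT2 was lower in the uL3Δ-labelled libraries and IRF7 did not pass. STAT2 (ENSG00000170581, chr12:56341597-56360203) carries the transactivating arm of ISGF3, and stood at 24.9, 22.1 and 21.0 CPM in HCT 116p53-/- cells with vehicle, 26.04, 26.9 and 25.8 CPM with Act D, 15.7, 15.2 and 18.03 CPM in the uL3Δ-labelled libraries with vehicle and 19.1, 17.4 and 19.4 CPM with Act D. The lines did not overlap under either treatment, and the log2 difference was -0.47 ± 0.11 (SE) with vehicle (adjusted p = 0.00067) and -0.50 ± 0.11 with Act D (adjusted p = 0.000544).

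IRF7 (ENSG00000185507, chr11:612553-615983), which amplifies interferon production, stood at 4.15, 5.58 and 6.76 CPM in HCT 116p53-/- cells with vehicle and at 6.98, 8.12 and 7.24 CPM with Act D. In the uL3Δ-labelled libraries it stood at 8.68, 5.25 and 4.86 CPM with vehicle and at 8.36, 8.68 and 8.00 CPM with Act D. The lines overlapped with vehicle, and the log2 difference was 0.17 ± 0.21 (adjusted p = 0.50).

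IRF9 (ENSG00000213928, chr14:24161234-24168043), the DNA-binding part of ISGF3, stood at 2.92, 3.03 and 3.32 CPM and, with Act D, at 3.86, 4.80 and 3.14 CPM in HCT 116p53-/- cells. The uL3Δ-labelled libraries held 1.04, 2.15 and 2.90 CPM with vehicle and 1.24, 3.54 and 1.62 CPM with Act D. The lines did not overlap with vehicle and overlapped with Act D. Its log2 difference with Act D was -0.93 ± 0.37 (adjusted p = 0.0311), a call that was lost without HCT 116p53-/- Act D replicate 1 or 2, or without uL3Δ-labelled Act D replicate 1 or 3 (adjusted p up to 0.18). IRF9 shares 1544 exon bases with another gene on the same strand, and the deposited posterior SD of its count reached 13.4% of the count, so its assignment was uncertain.

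ISG15 and 3 ubiquitin ligases were 4 of the 6 members furthest below. Of the 7 genes of ISG15 conjugation and ubiquitin ligation, 2 were higher, 4 lower and 1 not called with vehicle. ISG15 itself (ENSG00000187608, chr1:1001138-1014540), the ubiquitin-like modifier, stood at 41.9, 50.3 and 49.0 CPM in HCT 116p53-/- cells with vehicle and at 55.2, 65.3 and 51.4 CPM with Act D. In the uL3Δ-labelled libraries it stood at 2.81, 3.00 and 2.77 CPM with vehicle and at 4.44, 2.06 and 3.25 CPM with Act D. The lines were far apart under both treatments, with a log2 difference of -4.03 ± 0.17 with vehicle (adjusted p = 5.12e-13) and -4.08 ± 0.18 with Act D (adjusted p = 8.88e-13).

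HERC5 (ENSG00000138646, chr4:88457119-88506163), the main ligase that attaches ISG15 in human cells, stood at 7.91, 5.72 and 6.88 CPM against 1.21, 1.10 and 0.81 CPM with vehicle. With Act D it stood at 8.85, 8.12 and 10.7 CPM against 1.09, 1.83 and 2.67 CPM. Its neighbour HERC6 (ENSG00000138642, chr4:88378739-88443097) stood at 7.78, 6.404 and 6.58 CPM against 0.884, 1.00 and 1.01 CPM with vehicle and at 8.97, 7.03 and 8.37 CPM against 1.38, 1.94 and 0.928 CPM with Act D. Neither gene overlapped between the lines, with log2 differences with vehicle of -2.71 ± 0.27 for HERC5 and -2.82 ± 0.24 for HERC6.

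TRIM25 (ENSG00000121060, chr17:56836387-56914080), which ubiquitinates RIG-I, stood at 159, 166 and 178 CPM against 60.2, 43.98 and 44.6 CPM with vehicle, and at 179, 177 and 175 CPM against 40.3, 38.1 and 43.8 CPM with Act D. The log2 difference was -1.76 ± 0.11 with vehicle and -2.12 ± 0.11 with Act D. UBE2L6 and USP18 went the other way. UBE2L6, the E2 enzyme for ISG15, was 0.65 ± 0.14 higher on the log2 scale with vehicle (adjusted p = 0.000362), and USP18, which removes ISG15 and dampens receptor signalling, 0.59 ± 0.13 higher (adjusted p = 0.000466), though in TPM its means with Act D had the opposite order. TRIM21 had a log2 difference of -0.20 ± 0.16 with vehicle (adjusted p = 0.288) and -0.63 ± 0.16 with Act D (adjusted p = 0.00205).

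The sensors and effectors of double-stranded RNA were divided as well. Of 6 tested, 1 was higher, 3 lower and 2 not called with vehicle. OAS1 (ENSG00000089127, chr12:112905856-112933219), a synthetase of the second messenger that activates RNase L, stood at 0.130, 0.344 and 0.242 CPM in HCT 116p53-/- cells against 1.37, 2.55 and 2.84 CPM with vehicle, and at 0.249, 0.0676 and 0.241 CPM against 1.67, 3.31 and 3.83 CPM with Act D. It was low everywhere and did not overlap between the lines (log2 difference 3.21 ± 0.50 with vehicle).

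OASL (ENSG00000135114, chr12:121017763-121039246), a relative without synthetase activity that enhances RIG-I signalling, had the reverse order. It stood at 5.12, 3.51 and 4.65 CPM against 1.21, 0.651 and 1.15 CPM with vehicle and at 5.54, 4.94 and 5.87 CPM against 1.6, 1.14 and 0.58 CPM with Act D (log2 difference -2.18 ± 0.31 with vehicle). OAS3 and the sensor IFIH1 (MDA5) were lower too, by log2 differences of -0.75 ± 0.10 and -0.71 ± 0.27. EIF2AK2, the kinase PKR, stood at 76.2 to 87.1 CPM in the 6 libraries with vehicle and had a log2 difference of -0.04 ± 0.10 (adjusted p = 0.729).

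The IFIT genes, of a family with members that bind viral RNA ends, did not move together. IFIT1 (ENSG00000185745, chr10:89392546-89406487) stood at 3.50, 2.55 and 3.02 CPM against 0.964, 1.601 and 1.35 CPM with vehicle and at 2.49, 3.25 and 3.78 CPM against 0.946, 1.599 and 1.28 CPM with Act D, lower in every uL3Δ-labelled library (log2 difference -1.18 ± 0.29, adjusted p = 0.00142, with vehicle). IFIT5 (ENSG00000152778, chr10:89414568-89421605) stood at 39.8, 26.9 and 30.0 CPM against 16.6, 15.1 and 13.8 CPM with vehicle and at 29.5, 29.3 and 25.98 CPM against 8.15, 9.71 and 10.8 CPM with Act D (log2 differences -1.09 ± 0.14 and -1.58 ± 0.15).

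IFIT3, the partner that stabilises IFIT1, was higher instead, at 3.58 to 5.14 CPM against 1.30 to 1.58 CPM with vehicle (log2 difference 1.56 ± 0.27, adjusted p = 6.16e-05). IFIT2 did not pass (log2 difference -0.74 ± 0.35, adjusted p = 0.0641). IFIT2 and IFIT3 share 65 and 94 exon bases with LIPA on the opposite strand, and IFIT2 shares 524 with a gene on its own strand. The study names standard parameters for RSEM, which estimated the counts, and gives no strand setting. The reads of such partners therefore cannot be told apart. The mean count over the libraries was 783 for LIPA, 19.95 for IFIT2 and 35.6 for IFIT3.

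Of the 4 membrane restriction factors, IFITM1 and BST2 were higher (BST2 lower in TPM), IFITM2 lower and IFITM3 not called with vehicle. IFITM1 (ENSG00000185885, chr11:310041-315272), which acts at the cell surface, stood at 0.519, 0.620 and 0.483 CPM against 6.59, 6.71 and 9.25 CPM with vehicle and at 1.495, 0.541 and 0.241 CPM against 7.64, 6.05 and 6.38 CPM with Act D. Its log2 difference was 3.78 ± 0.37 with vehicle, without overlap. IFITM2 went the other way (-1.03 ± 0.19, adjusted p = 0.000123). The 3 IFITM genes are close copies, and the posterior SD of IFITM1 reached 10.4% of its count, so its assignment too was uncertain.

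The largest increases were in genes almost silent in HCT 116p53-/- cells. GBP2, GBP1, IFI44L, IFITM1, OAS1 and BST2 had enough reads to be tested only through the uL3Δ-labelled libraries. Members low in both lines were not tested, so the filter favoured such increases. GBP2 (ENSG00000162645, chr1:89106132-89150456), a guanylate-binding GTPase, stood at 0.648, 0.207 and 0.483 CPM against 27.2, 33.6 and 31.3 CPM with vehicle and at 0.934, 0.609 and 0.241 CPM against 37.6, 38.8 and 38.8 CPM with Act D (log2 difference 6.07 ± 0.24 with vehicle). Its neighbour GBP1 (ENSG00000117228, chr1:89051882-89065360) had 2, 2 and 0 counts in HCT 116p53-/- cells with vehicle and no count with Act D. In the uL3Δ-labelled libraries GBP1 stood at 2.65, 2.50 and 2.70 CPM with vehicle and at 3.27, 2.74 and 3.36 CPM with Act D, at least 14.9-fold higher with Act D against a floor of 3 counts per library. With GBP1 at that bound the members' median with Act D was the same, 0.27.

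IFI44L (ENSG00000137959, chr1:78619902-78646145), an interferon-induced gene reported to feed back on the response, stood at 0.194, 0.0689 and 0.242 CPM against 10.6, 10.6 and 12.6 CPM with vehicle and at 0.187, 0 and 0.241 CPM against 12.7, 15.8 and 12.3 CPM with Act D (log2 difference 5.96 ± 0.34 with vehicle). SAMD9 (ENSG00000205413, chr7:93099513-93118023), a restriction factor of poxviruses, stood at 7.39, 5.30 and 8.03 CPM against 43.5, 48.2 and 51.6 CPM with vehicle and at 6.11, 6.83 and 6.76 CPM against 40.0, 46.0 and 35.5 CPM with Act D (log2 difference 2.78 ± 0.14 with vehicle). None of these genes overlapped between the lines.

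PARP14 and DTX3L, of the ADP-ribosylation enzymes, were higher with vehicle by 1.08 ± 0.11 and 0.89 ± 0.12 on the log2 scale. PARP9, the partner of DTX3L, was called with Act D (0.55 ± 0.20, edgeR adjusted p = 0.0177, lower in TPM). PARP9 and DTX3L share 139 exon bases on opposite strands. PML, the scaffold of PML nuclear bodies, was higher by 1.63 ± 0.13 with vehicle. SAMHD1, which degrades deoxynucleotides, was higher by 0.28 ± 0.11 in this fit and lower in TPM, and the nuclease ISG20 was not called. IFI35 was higher by 0.80 ± 0.24 and IFI6, a mitochondrial and endoplasmic reticulum protein, lower (-0.72 ± 0.17), while IFI27 and IFI44 were not called.

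Many members sit beside each other in the genome, and 23 of the 45 fall into 9 groups of neighbours less than 200 kb apart. Direction was shared in some groups and not in others. HERC5 and HERC6 were both lower, and GBP1 and GBP2 both higher. In the IFIT group on chromosome 10, IFIT3 was higher and IFIT1, whose start lies 65239 bases away, was lower. OAS1 was higher and OAS3, 32195 bases away, lower. IFITM1 was higher and IFITM2, 6386 bases away, lower. IFI44L and IFI44 start 29894 bases apart, and the log2 difference was 5.96 for the first and 0.38 ± 0.42 for the second. DTX3L and PARP9 start 239 bases apart on opposite strands, and with vehicle their log2 differences were 0.89 and -0.11 ± 0.19. They share 139 exon bases, with mean counts of 288 for DTX3L and 84.7 for PARP9. Reads in that stretch cannot be told apart, as for the IFIT genes.

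**Figure D3:**
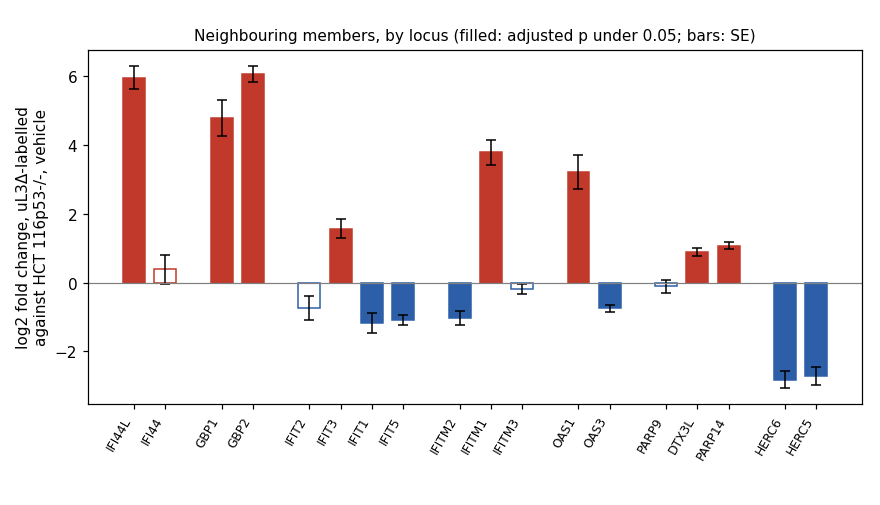
Log2 difference between the lines with vehicle for tested members that have another tested member nearby, ordered by locus with gaps between loci, with bars filled where adjusted p was under 0.05 and lines giving the standard error (3 libraries a group). Red bars (higher in uL3Δ-labelled libraries) and blue bars (lower) stand side by side within the IFIT, IFITM and OAS loci, while the GBP and HERC loci each have 1 colour.

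The half-site pair, counted only at a spacing of 2 bases, occurred in members of both directions. Half-sites at another spacing were not counted, as in OAS1 (gaaacgaaa) and IFI35 (gaaatgaaa), which fall among the members without the pair. The counts below therefore cannot decide whether a response element goes with a direction. Of the 22 tested members with the pair, 8 were higher, 7 lower and 7 not called with vehicle. Of the 9 tested members whose window lacks it, 4 were higher, 3 lower and 2 not called. With Act D the counts were 9, 8 and 5 with the pair and 5, 4 and 0 without it.

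To ask whether Act D changed these genes, the libraries of each line with Act D were compared with those with vehicle. In HCT 116p53-/- cells, DHX58, TRIM21 and PML rose and no member fell, with 36 of 39 not called. The 7.69% that rose compares with 7.59% of all genes tested, and 11.1% of all genes fell. DHX58 had enough reads to be tested only through the HCT 116p53-/- libraries with Act D, the group in which it was high. At an unadjusted p under 0.05 there were 6 members in either direction, a count without a background because the share of all genes was not computed there. DESeq2 called TRIM21 and PML with no member lower. The median member changed by 0.12 on the log2 scale and the median gene by 0.02, and 29 of 39 members (74.4%) had a positive change, beside 52.2% of all genes.

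DHX58 (ENSG00000108771, chr17:42101404-42112714), the RNA helicase LGP2 that modulates MDA5, stood at 0.583, 0.138 and 0.242 CPM with vehicle and at 1.43, 1.49 and 1.21 CPM with Act D in HCT 116p53-/- cells. These are 9, 2 and 4 counts with vehicle and 23, 22 and 15 with Act D, without overlap (log2 change 2.07 ± 0.54, adjusted p = 0.0118). The call was lost without vehicle replicate 2 (adjusted p = 0.0616) or 3 (0.0543), and DESeq2 gave it no adjusted p. In the uL3Δ-labelled libraries DHX58 stood at 0.562, 0.2502 and 0.270 CPM with vehicle and at 0.509, 1.49 and 0.464 CPM with Act D, so that 1 library of the 3 was high (log2 change 1.18 ± 0.59, adjusted p = 0.228).

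TRIM21 (ENSG00000132109, chr11:4384897-4393702), a cytosolic antibody receptor and ubiquitin ligase, rose from 8.69, 10.4 and 6.82 CPM to 15.2, 14.3 and 12.6 CPM in HCT 116p53-/- cells, without overlap (log2 change 0.70 ± 0.16, adjusted p = 0.00393). In the uL3Δ-labelled libraries it stood at 6.83, 8.36 and 7.23 CPM with vehicle and at 8.44, 8.57 and 10.3 CPM with Act D (log2 change 0.27 ± 0.17, adjusted p = 0.341). The adjusted p of TRIM21 stayed under 0.05 in the 15 other fits and left-out libraries tried for it, up to 0.0281, though its change is below the fold threshold of 1 on the log2 scale that was also tried.

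PML (ENSG00000140464, chr15:73994673-74047827) rose from 10.4, 13.5 and 15.3 CPM to 19.7, 17.4 and 16.6 CPM in HCT 116p53-/- cells (log2 change 0.46 ± 0.14, adjusted p = 0.0293). Leaving out vehicle replicate 1 or 2, or Act D replicate 1 or 2, ended the call (adjusted p from 0.0598 to 0.144). PML in the uL3Δ-labelled libraries stood at 41.5, 36.5 and 43.6 CPM with vehicle and at 49.1, 39.7 and 41.5 CPM with Act D, and these groups overlapped (log2 change 0.11 ± 0.13, adjusted p = 0.646).

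In the uL3Δ-labelled libraries, IFIT5 fell and no member rose with Act D, with 38 of 39 not called. Over all genes 3.51% rose and 8.40% fell. At an unadjusted p under 0.05 there were 8 members in either direction, again without the share of all genes to set beside it. DESeq2 gave the same single call. IFIT5 fell by 0.68 ± 0.16 on the log2 scale (adjusted p = 0.0085), from 16.6, 15.1 and 13.8 CPM to 8.15, 9.71 and 10.8 CPM, without overlap, and the call was lost without Act D replicate 1 (adjusted p = 0.0623), where HERC5 and PARP9 were called instead. In HCT 116p53-/- cells the change of IFIT5 was -0.19 ± 0.14 (adjusted p = 0.373). Without vehicle replicate 1, IRF7 was called as a rise (log2 change 0.72, adjusted p = 0.0307), and without vehicle replicate 3, DTX3L and SAMHD1 were called. The median member changed by 0.26 and the median gene by 0.03, and 31 of 39 members (79.5%) had a positive change, beside 53.8% of all genes.

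ISG15, the member furthest below in the uL3Δ-labelled libraries, had log2 changes with Act D of 0.28 ± 0.13 and 0.24 ± 0.23 in the 2 lines (adjusted p = 0.142 and 0.57), and STAT2 0.21 ± 0.10 and 0.19 ± 0.11 (adjusted p = 0.175 and 0.306). IRF7 had 0.43 ± 0.21 and 0.43 ± 0.22 (adjusted p = 0.173 and 0.219). Summed over the 45 members, the level was 690 to 700 CPM with vehicle and 752 to 789 CPM with Act D in HCT 116p53-/- cells, and 602 to 661 CPM and 684 to 707 CPM in the uL3Δ-labelled libraries. As genes typical of the uL3Δ-labelled libraries, 17 were chosen on vehicle means, at least 50 CPM there and under 0.5 CPM in HCT 116p53-/- cells. In HCT 116p53-/- libraries they stood at a median of 0.132% to 0.219% of that level with vehicle and 0.734% to 0.81% with Act D. The choice itself held the vehicle share low, so these shares do not measure a change. The 14 genes chosen the other way stood at 0.332% to 0.56% and 0.194% to 1% in the uL3Δ-labelled libraries. With Act D, DHX58 and TRIM21 stood in HCT 116p53-/- cells at 168% and 154% of their uL3Δ-labelled level and PML at 41.1%. What part the genes typical of the uL3Δ-labelled libraries have in the Act D changes was not tested.

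**Figure D4:**
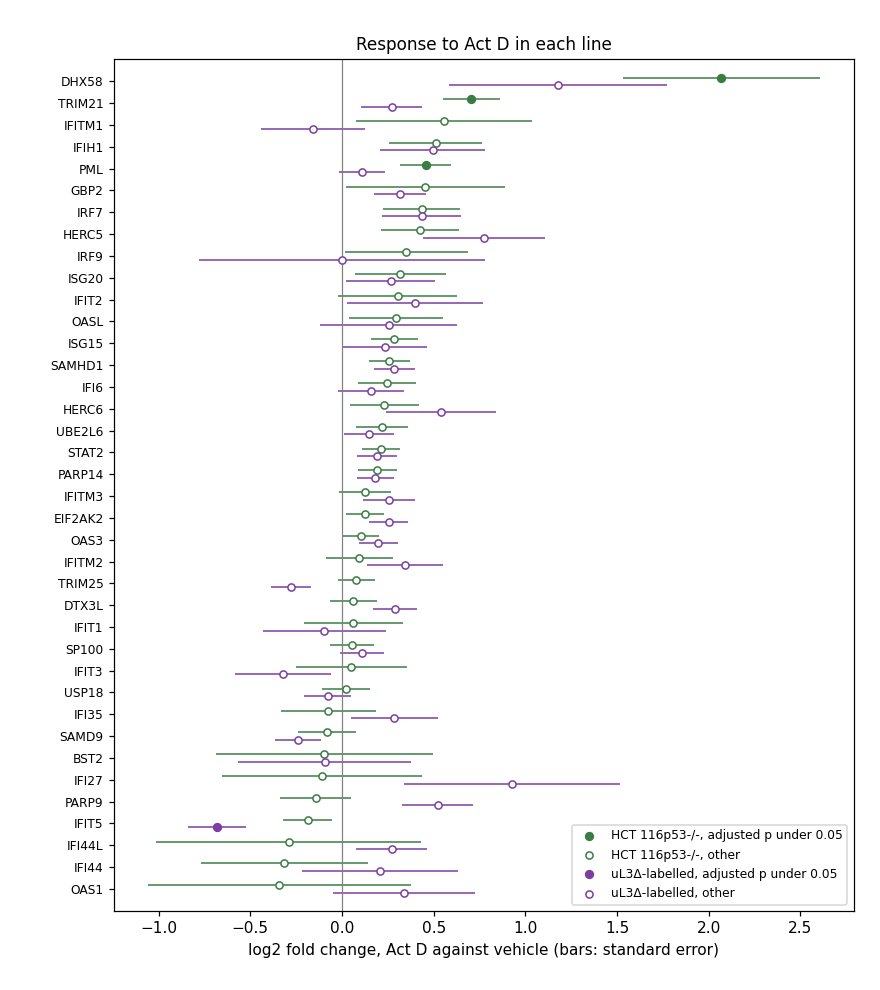
Log2 change with Act D for 38 tested members in HCT 116p53-/- cells (green) and in uL3Δ-labelled libraries (purple), 3 libraries a group, with bars giving the standard error and filled points an adjusted p under 0.05. GBP1 is left out because it had no count in HCT 116p53-/- cells with Act D. Only DHX58, TRIM21 and PML in green and IFIT5 in purple are filled, and most points lie between 0 and 0.5.

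Whether the lines responded differently was tested on the difference of the 2 responses itself. No member passed, with edgeR's quasi-likelihood test, its likelihood-ratio test or DESeq2, beside 3.30% of all genes higher and 3.23% lower. At an unadjusted p under 0.05 there were 4 members, again without the share of all genes to set beside it, and the smallest adjusted p was 0.136. For DHX58, TRIM21, PML and IFIT5 the differences were -0.89 ± 0.82, -0.43 ± 0.23, -0.35 ± 0.19 and -0.49 ± 0.21 on the log2 scale (adjusted p = 0.576, 0.29, 0.305 and 0.177). The calls made in 1 line were therefore not shown to be particular to it.

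**Figure D5:**
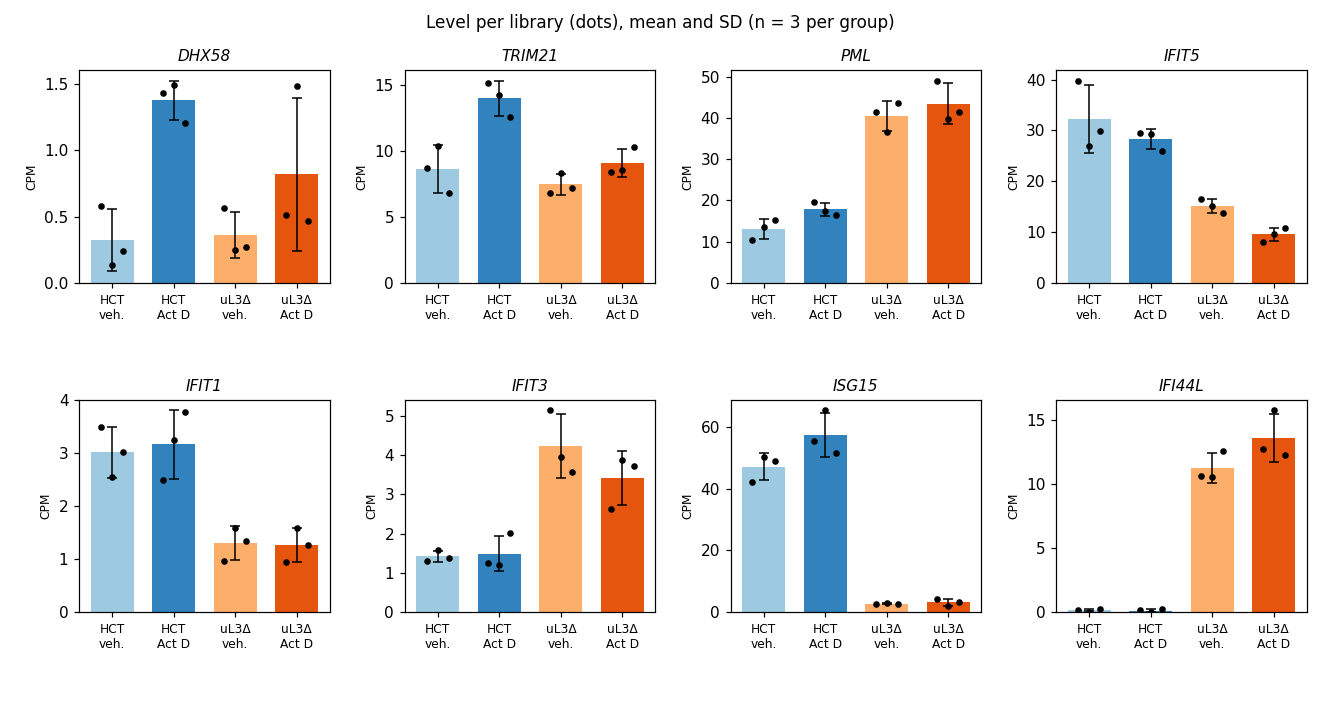
CPM of DHX58, TRIM21, PML, IFIT5, IFIT1, IFIT3, ISG15 and IFI44L in each library (dots), with the mean (bars) and SD (lines) of 3 libraries per group on axes from 0. DHX58 and TRIM21 rise with Act D in HCT 116p53-/- cells, IFIT5 falls in the uL3Δ-labelled libraries, and ISG15 and IFI44L differ between the lines under both treatments.

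The rest of the pathway was followed in a list of 38 ligands, receptors, kinases, inhibitors, sensors and regulatory factors, of which 29 were tested. With vehicle 8 were higher, 17 lower and 4 not called in the uL3Δ-labelled libraries, beside 35.1% of all genes higher and 36.2% lower, with a median log2 difference of -0.28. The interferon receptor chains were both lower: IFNAR1 stood at 26.9, 27.6 and 34.4 CPM against 17.1, 14.96 and 15.3 CPM (log2 difference -0.91 ± 0.11), and IFNAR2 at 5.64, 6.61 and 10.1 CPM against 4.74, 4.10 and 3.85 CPM (-0.83 ± 0.27, adjusted p = 0.00992). Of their kinases, JAK1 stood at 85.2, 80.2 and 85.4 CPM against 77.6, 69.2 and 68.3 CPM (-0.22 ± 0.09, adjusted p = 0.026), and TYK2 at 29.9, 42.1 and 38.8 CPM against 26.8, 24.9 and 26.7 CPM (-0.50 ± 0.11).

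Large decreases with vehicle were in IRF5 (-4.50), the phosphatase PTPN6 (-2.81), the adaptor MAVS (-2.01), the interferon lambda receptor chain IFNLR1 (-1.27) and JAK2 (-1.003). IRF1 (1.97), IRF2 (1.93), the kinase IKBKE (1.81), the interferon gamma receptor chain IFNGR2 (1.23) and TLR3 (1.07) were higher. With Act D, SOCS1, SOCS3, TICAM1 and IFNAR1 were also lower by more than 1 on the log2 scale (-1.37, -1.22, -1.17 and -1.05). In that comparison 7 of the 29 were higher, 18 lower and 4 not called, beside 35.1% and 35.3% of all genes.

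With Act D, 5 of the 29 rose and 2 fell in HCT 116p53-/- cells, beside 7.59% and 11.1% of all genes. SOCS1, an inhibitor of JAK kinases, rose from 1.56, 1.79 and 1.87 CPM to 3.24, 4.73 and 2.65 CPM (log2 change 1.03 ± 0.31, adjusted p = 0.0274). IFNGR1, STAT3, SOCS3 and TICAM1 rose less, by 0.46, 0.38, 0.71 and 0.53 on the log2 scale, and MAVS and TRAF3 fell. In the uL3Δ-labelled libraries TRAF3, an adaptor of interferon induction, fell by 1.58 ± 0.13 on the log2 scale, from 108, 73.6 and 76.0 CPM to 27.4, 26.5 and 32.7 CPM, and the other 28 were not called, beside 3.51% of all genes that rose and 8.40% that fell.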

How the data were processed

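RNA-seq libraries of 2 colon cancer lines with vehicle or Act D were grouped by their labels, 3 per group. Per the labels and the study's methods, the authors estimated expected counts and TPM with RSEM 1.2.25 on hg38 and deposited them, unnormalised in the case of the counts, with the posterior SD of each count. One file of HCT 116p53-/- vehicle, replicate 2, held transcripts, which were summed per gene. The expected counts were rounded to whole numbers and tested with edgeR 4.0.16 (R 4.3.3): TMM factors, filterByExpr by group, and the quasi-likelihood test on all 12 libraries with 1 coefficient per group. P-values were adjusted by Benjamini-Hochberg over the 15692 genes tested, with a threshold of 0.05, and CPM use the TMM library sizes. SE of the log2 fold change were derived from the quasi-likelihood test, as its absolute value over the square root of the F statistic, n = 3 per group. They are less certain for changes near 0. The study names a false discovery rate and no test. Depth limits precision through counting error, and a floor of 3 counts was used for genes at 0.

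The members and lists were chosen with earlier results of these data known. Values in every library are given for STAT2, IRF7 and IRF9, for the 6 members furthest in each direction between the lines and the 4 in each direction with Act D, among those past the threshold whose groups do not overlap and that reach 1 CPM on average in 1 group. From the pathway list IFNAR1, IFNAR2, JAK1 and TYK2 are always given, as are those past the threshold with a log2 difference of at least 1, and 1 further gene that was to be given whatever its values is not reported here. Gene positions are from GENCODE v44 on hg38, and promoter windows from RefSeq on GRCh38.p14. Alternatives were other scalings, DESeq2 1.42.0, the likelihood-ratio test, other filters, a replicate block, a fold threshold, 2-group fits and each library left out.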

Additional observations from a re-analysis of the deposited data

Results flagged for a closer look

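SOCS3, MAVS and TRAF3, genes of the pathway list and not members, had responses to Act D that differed between the lines by edgeR's quasi-likelihood test of the difference itself, adjusted over all genes tested. SOCS3, an inhibitor of JAK kinases, had a difference of -0.9953 on the log2 scale, with a rise of 0.71 in HCT 116p53-/- cells and a change of -0.28 in the uL3Δ-labelled libraries (adjusted p = 0.0354). MAVS, the adaptor of RNA sensors, had a difference of 0.8363, with -0.79 and 0.04 (adjusted p = 0.000936). TRAF3 had a difference of -0.6625, with -0.91 and -1.58 (adjusted p = 0.0365).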

How the results depend on the processing

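The counts between the lines (27 members called with vehicle and 31 with Act D) stayed within 1.5 times under every alternative but 1: with a log2 difference of at least 1 required, 19 members were called with Act D. That threshold left 1 call for Act D in HCT 116p53-/- cells and 0 in the uL3Δ-labelled libraries. For Act D in the uL3Δ-labelled libraries, upper-quartile factors gave 2 calls, library size alone 2 and no filter 2. With scaling by library size alone the median gene between the lines moved by -0.24. There were then 13 members higher and 17 lower with vehicle, and 11 and 15 with Act D. Positive Act D changes numbered 22 and 30, and the call of PML ended (edgeR adjusted p = 0.129). Shares of all genes called under the alternatives are not given here, so the member counts in this section have no background beside them. No called member changed sign under the 3 other scalings of the counts, while the deposited TPM had 2 of the 27 and 4 of the 31 in the opposite order. Leaving out 1 library gave 25 to 30 calls with vehicle, 26 to 29 with Act D, 1 to 3 for Act D in HCT 116p53-/- cells, 1 to 3 in the uL3Δ-labelled libraries and 0 to 1 (IFIT5, without HCT 116p53-/- vehicle replicate 1) for the difference. Same-numbered libraries did not deviate together (correlations from -0.104 to 0.101), and the replicate block gave 27 and 30 calls between the lines, 3 and 1 with Act D and 0 for the difference, losing SP100 alone. Of 599 values of single genes under alternatives, 585 kept their side of the threshold, 12 lost a call and 2 gained one. No value called in the main fit changed sign. Values not called could change sign, such as IRF7 between the lines with vehicle, from -0.115 to 0.345 on the log2 scale. Members under about 1 CPM rest on few counts.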
